A study of Mus musculus with 12 samples.

Results

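A set of 9 genes was followed that is known from oncostatin M-driven dedifferentiation of heart muscle cells and from the fetal gene program, namely Nppa, Nppb, Acta1, Acta2, Ankrd1, Runx1, Dab2, Nes and Kit. They were taken by name from the 22915 genes of the deposited table, all 9 were found, and all 9 passed the filter on low values. Primary cardiomyocytes of adult male C57/Bl6 mice, 12 weeks of age in the sample descriptions, had been cultured under normoxia and exposed for 24 h to a recombinant cytokine or to an equal volume of PBS. The cytokines were leukemia inhibitory factor of the mouse (mLIF), oncostatin M of the mouse (mOSM), and hlOSM, a mouse oncostatin M whose AB loop was made human-like, each at 25 ng/mL in the sample descriptions, whereas the methods give a lower concentration, so that the dose is uncertain. mLIF binds the receptor LIFR, mOSM binds OSMR, and hlOSM was built to bind both. The comparisons ask which of these genes respond through one receptor, through the other, and through both at once. Each of the 4 conditions had 3 libraries, 12 in all, and the methods speak of biological replicates without saying whether these were separate mice or preparations of cells, so that p-values measure only the spread between these libraries.

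An adult heart muscle cell that is stressed or kept in culture can switch genes of the fetal heart back on. These include the natriuretic peptides, skeletal and smooth muscle actin and the stress-responsive titin-binding protein ANKRD1, and they serve as readouts of hypertrophy and failure. Dedifferentiation goes further: sarcomeres are taken apart, and genes that mark progenitor or immature cells, such as Runx1, Dab2, Nes and Kit, appear. Oncostatin M signals through gp130 with OSMR, JAK kinases, STAT3 and the ERK pathway, and is known as a driver of this second state.

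Runx1, Nes and Kit, known as markers of dedifferentiation, rose to more than 2-fold their PBS level with mOSM and with hlOSM, with log2 differences from 1.07 to 1.39, and Dab2 rose by a smaller amount. As single libraries were left out, Nes went down to 0.82 with mOSM and 0.90 with hlOSM, which is under 2-fold. Of the other 5 genes, which belong to the fetal program, only Acta1 rose, by 0.31 and 0.40 on the log2 scale. Acta2 fell to 0.371 of its PBS level with mOSM, Nppa fell with hlOSM, and Nppb and Ankrd1 did not pass the test with any cytokine. With mLIF, only Acta1 and Runx1 rose, and each of these calls was lost in 4 of the 12 fits that left out a single library.

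Letters before the start site are shown for a pair of actin genes that moved in opposite directions, for Nppb, which did not pass the test, and for Dab2, the only member with a STAT motif. RefSeq gives a start site for each of the 9 genes on GRCm38.p6, and the 250 bases before it were searched on both strands for 5 motifs. These were the STAT motif TTCNNNGAA, the CArG box CCWWWWWWGG bound by serum response factor and the MCAT motif CATTCC bound by TEAD factors. The others were the GATA motif AGATAA and the AP-1 motif TGANTCA, where N is any base and W is A or T. Only these exact spellings were searched, so that a window without a match, such as that of Acta2 for the CArG box, may hold a variant. The RefSeq start sites of several genes lie inside the gene bounds of the table given further on. Most of the Acta2 window and part of the Nppb window thus fall within those bounds. The window of Ankrd1 and those of the second start sites of Runx1 and Dab2 lie wholly within them. Windows of Nes, Kit and the first start site of Runx1 reach into them in part. The first Dab2 window ends on the first base of its gene. Capitals mark the matches, and each line runs 5′ to 3′ on the gene's own strand.
Acta1, minus strand, chr8:123894776-123895025: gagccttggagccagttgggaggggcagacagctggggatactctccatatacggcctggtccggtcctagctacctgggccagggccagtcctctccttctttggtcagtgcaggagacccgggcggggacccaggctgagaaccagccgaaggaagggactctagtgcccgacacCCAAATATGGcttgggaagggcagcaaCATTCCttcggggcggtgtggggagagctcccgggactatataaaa
Acta2, minus strand, chr19:34255374-34255623: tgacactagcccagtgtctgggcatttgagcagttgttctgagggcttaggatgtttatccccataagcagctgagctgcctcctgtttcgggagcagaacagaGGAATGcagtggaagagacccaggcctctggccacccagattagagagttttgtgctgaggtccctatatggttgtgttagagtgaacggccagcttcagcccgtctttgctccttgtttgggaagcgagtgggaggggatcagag
Nppb, plus strand, chr4:147985650-147985899: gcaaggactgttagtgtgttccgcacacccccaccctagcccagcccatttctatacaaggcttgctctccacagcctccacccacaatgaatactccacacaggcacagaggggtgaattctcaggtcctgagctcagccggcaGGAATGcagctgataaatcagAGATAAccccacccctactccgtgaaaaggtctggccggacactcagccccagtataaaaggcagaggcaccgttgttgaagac
Dab2, first of 2 start sites, plus strand, chr15:6299539-6299788: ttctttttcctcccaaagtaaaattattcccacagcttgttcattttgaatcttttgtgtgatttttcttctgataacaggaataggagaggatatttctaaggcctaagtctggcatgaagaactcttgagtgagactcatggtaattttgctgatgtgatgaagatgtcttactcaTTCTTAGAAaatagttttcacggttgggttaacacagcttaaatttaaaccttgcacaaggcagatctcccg

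The Acta1 window held the CArG box from −73 to −64 and an MCAT motif from −46 to −41, counted from the base before the start site. An MCAT motif was also present before Acta2, Nppb and the second start site of Runx1, and Ankrd1 had 2. A GATA motif lay in the windows of Nppb and Ankrd1. The STAT match before Dab2 lay from −72 to −64. In the 27025 promoters of the RefSeq table, 12.6% held the MCAT motif, 10.3% the GATA motif, 7.18% the STAT motif, 6.87% the AP-1 motif and 1.4% the CArG box. In the exact spellings searched, no AP-1 motif was found in the windows of the 9 genes. None of the 5 spellings was found in those of Nppa, Nes and Kit, the first of Runx1 and the second of Dab2. Variants of the GATA motif and of the other motifs were not searched. The MCAT motif was thus shared by members that rose, fell or did not pass the test. A match of letters is a description of the window and was not tested as a binding site.

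The 12 libraries had totals of 2745748 to 2911891 normalized counts, which are not numbers of reads, so that the depth behind a value is unknown and no counting error is attached. Tests used limma on log2(normalized count + 1) with 13184 genes, and a gene was called at a Benjamini-Hochberg adjusted p under 0.05 over all of them. A rise or fall by a stated amount is a difference on that log2 scale, which understates the change of low genes. Gene positions are those of the table, on mm10, and all 9 genes are protein-coding with the same bounds in GENCODE M21. The median difference of all tested genes lay between −0.01 and 0.01 in every comparison. Genes defining heart muscle were high throughout, Ttn at 32924 ± 232 (SD, n = 3) in PBS among them. Averaged over conditions, libraries of different replicate number were nearly equal. Whether a replicate effect had been removed in processing is not given in the sources used here, and the p-values, which count no such step, would then be too small. Because the RNA came from whole cultures, fewer cells of a type and less RNA per cell cannot be told apart in any value below.

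Across all 9 genes, mLIF raised 2 and lowered 0, mOSM raised 5 and lowered 1, and hlOSM raised 5 and lowered 2, each against PBS. Over all tested genes, mLIF raised 5.47% and lowered 4.44%, mOSM raised 15.4% and lowered 15.8%, and hlOSM raised 18.2% and lowered 19.8%. Counted by libraries that did not overlap those of PBS, 3 members were higher and 0 lower with mLIF, where the shares over all tested genes were 14.7% and 15.6%. The same count gave 5 higher and 1 lower with mOSM, against 20.2% and 19.9% of all genes, and 5 higher and 2 lower with hlOSM, against 22.7% and 24.3%. The members were taken for their known part in this response, so that these shares describe them and are no test of the list. The plot of levels by library shows the 9 genes side by side.

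**Figure D1:**
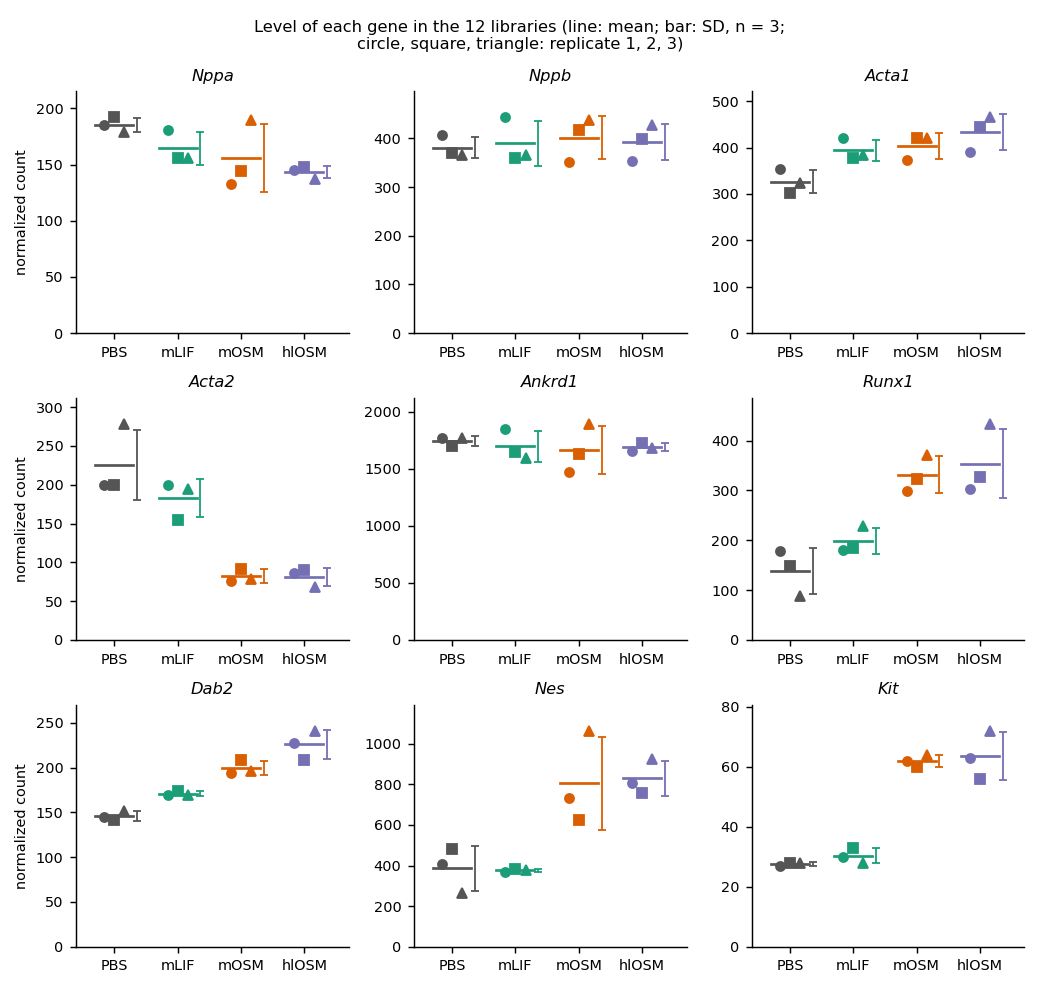
Normalized count (vertical axes, from 0) of the 9 genes in the 12 libraries, with a panel for each gene and the 4 conditions along the horizontal axis; lines are means, bars are SD with n = 3, and symbols are the replicate numbers. Kit, Nes and Runx1 are at their highest with mOSM and hlOSM, Acta2 at its lowest, and the libraries of Nppb and Ankrd1 overlap in all conditions.

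Nppa and Nppb encode the precursors of the atrial and B-type natriuretic peptides, hormones that lower blood volume and pressure, and are the most widely used markers of a stressed ventricle. They lie on chromosome 4, Nppb (ENSMUSG00000029019) from 147985788 to 147987205 and Nppa (ENSMUSG00000041616) from 148000722 to 148002079, both on the plus strand and 13516 bases apart. Nppa had normalized counts of 185, 192 and 179 in PBS, 181, 156 and 156 after mLIF, 133, 144 and 190 after mOSM and 145, 148 and 137 after hlOSM. All 3 hlOSM libraries lay below all PBS libraries, whereas 1 of the 3 mOSM libraries was as high as PBS. The log2 difference was −0.37 (SE 0.10, adjusted p = 0.00663) with hlOSM, −0.27 (adjusted p = 0.0508) with mOSM and −0.18 (adjusted p = 0.29) under mLIF. Without mOSM replicate 3, the library at 190, the difference with mOSM was −0.42 (adjusted p = 0.00109). The call lay close to the threshold and was also gained without mLIF replicate 1 (adjusted p = 0.0498) or hlOSM replicate 3 (0.0497).

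Of the exonic bases of Nppa, 61.5% are overlapped by Gm13054 on the opposite strand. The library kit keeps strand, but the sources used here do not give the strand setting of the counting. Gm13054 itself had normalized counts of 0 to 5 in the 12 libraries.

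Nppb, the neighbor of Nppa, had 406, 370 and 366 in PBS, 443, 360 and 366 after mLIF, 351, 416 and 437 after mOSM and 353, 398 and 427 after hlOSM. All conditions overlapped. The log2 difference was 0.071 (95% interval −0.11 to 0.25) with mOSM, 0.042 (−0.14 to 0.22) with hlOSM and 0.029 (−0.15 to 0.21) with mLIF.

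Of 6 tested genes that process or receive the natriuretic peptides, hlOSM raised 0 and lowered 1, and mOSM raised 1 and lowered 1, beside the shares of all genes given above. The gene that fell was Npr3, the clearance receptor, by 0.80 (adjusted p = 1.56e-05) with mOSM and, under hlOSM, by 1.05 (adjusted p = 2.99e-07) on the log2 scale. Furin, a convertase, rose by 0.19 with mOSM (adjusted p = 0.0328, and 0.055 with a replicate block). The convertase Corin, the guanylyl cyclase receptors Npr1 and Npr2 and the peptidase Mme did not pass with any cytokine, and their differences with hlOSM ran from −0.13 (Npr2) to 0.43 (Npr1, adjusted p = 0.069).

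Acta1 and Acta2 encode the skeletal and the smooth muscle form of alpha-actin, both of which the developing heart uses. Acta1 (ENSMUSG00000031972) lies on chromosome 8 from 123891769 to 123894751 and Acta2 (ENSMUSG00000035783) on chromosome 19 from 34241090 to 34255590, both on the minus strand. Acta1 had 354, 303 and 323 in PBS, 420, 378 and 384 after mLIF, 372, 420 and 420 after mOSM and 390, 444 and 465 after hlOSM. Every cytokine library lay above every PBS library. Its rise on the log2 scale was 0.40 (SE 0.075, adjusted p = 0.00019) with hlOSM, 0.31 (adjusted p = 0.00322) with mOSM and 0.27 (adjusted p = 0.0241) under mLIF. The call with mLIF was lost without PBS replicate 2 (0.22, adjusted p = 0.11), PBS replicate 3 (0.26, adjusted p = 0.0738), mLIF replicate 1 (0.22, adjusted p = 0.116) or mLIF replicate 3 (0.29, adjusted p = 0.0637).

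Acta2 moved the other way. It had 199, 200 and 278 in PBS, 199, 154 and 195 after mLIF, 76, 92 and 79 after mOSM and 86, 90 and 68 after hlOSM. No mOSM or hlOSM library exceeded 92, and no PBS or mLIF library was below 154. Its log2 difference from PBS was −1.43 (SE 0.13, adjusted p = 2.07e-08) with mOSM, −1.45 (adjusted p = 1.1e-08) with hlOSM and −0.29 (adjusted p = 0.155) with mLIF. No stretch of 75 bases of Acta2 occurs in another annotated gene, and of Acta1 0.394% of such stretches do. Few reads of that full length and without mismatches could thus be shared between actin genes. The methods also admitted shorter, trimmed reads and mismatches, which these shares do not cover.

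The other actin genes gave smaller differences. Actc1, the cardiac form, fell by 0.19 with mOSM (adjusted p = 0.0322) and with hlOSM (adjusted p = 0.0269). Cytoplasmic Actg1 fell by 0.41 with mOSM (adjusted p = 0.00156) and differed by −0.23 with hlOSM (adjusted p = 0.0555). Cytoplasmic Actb did not pass (−0.14 and −0.13), and Actg2, the enteric smooth muscle form, was at 0 to 2 in all libraries and was not tested.

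The remaining contractile genes of smooth muscle fell together with Acta2. All 5 that were tested (Tagln, Myl9, Myh11, Smtn and Tpm2) fell with mOSM and with hlOSM, with medians of −1.30 and −1.68, beside medians of all genes of −0.0043 and −0.0052. With mLIF, 1 of the 5 passed, Smtn, which fell by 0.49 (adjusted p = 0.00528). With hlOSM, Tpm2, a tropomyosin, fell by 1.89, the actin-binding protein Tagln by 1.76, the light chain Myl9 by 1.68 and the heavy chain Myh11 by 1.48. Cnn1 and Lmod1 were at 0 to 8 and not tested. Among markers of vascular smooth muscle and pericytes, 5 of 6 tested genes fell with hlOSM and 4 with mOSM. Their summed level was 739 to 865 in PBS, 718 to 726 after mLIF, 583 to 663 after mOSM and 553 to 568 after hlOSM. Of the defining markers, Cnn1 was at 0 to 2, while Rgs5, Notch3 and Pdgfrb were measured in every library and fell by 0.79, 0.77 and 0.65 with hlOSM. The part of such cells in the fall of Acta2 was not tested.

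Ankrd1, also called CARP, binds the N2A region of titin and shuttles to the nucleus, and is read as a sign of mechanical stress. Its gene, ENSMUSG00000024803, lies on chromosome 19 from 36111961 to 36120099 on the minus strand. It had 1771, 1699 and 1767 in PBS, 1854, 1650 and 1596 after mLIF, 1476, 1635 and 1893 after mOSM and 1657, 1729 and 1687 after hlOSM. The conditions overlapped, and mOSM libraries were spread most widely. Log2 differences were −0.046 (95% interval −0.19 to 0.097) with hlOSM, −0.073 (−0.22 to 0.070) with mOSM and −0.041 (−0.18 to 0.10) with mLIF. Without mOSM replicate 3, the library at 1893, the difference with mOSM was −0.17 (adjusted p = 0.0307). After quantile normalization the differences with mLIF and hlOSM changed sign, to 0.0087 and 0.015.

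Of the tested genes for relatives of ANKRD1, titin and associated muscle proteins, 2 of 5 fell with each cytokine. Ttn, the titin gene itself, fell by 0.48 with hlOSM (adjusted p = 3.03e-07), by 0.53 with mOSM (adjusted p = 1.3e-07) and by 0.20 with mLIF (adjusted p = 0.0234). Cavin4, a caveolar protein of muscle, fell by 0.43, 0.31 and 0.26 in the same order. Ankrd23, a paralog, Mypn, a partner of ANKRD1 at the sarcomere, and the ubiquitin ligase Trim63 did not pass, and the paralog Ankrd2 was at 1 to 7 and not tested.

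Runx1, a transcription factor of blood stem cells, is re-expressed in injured heart muscle and is among the classical markers of oncostatin M-treated cardiomyocytes. Its gene, ENSMUSG00000022952, lies on chromosome 16 from 92601466 to 92826149 on the minus strand. It had 178, 148 and 89 in PBS, 181, 185 and 229 after mLIF, 299, 323 and 372 after mOSM and 302, 326 and 433 after hlOSM. Every mOSM and hlOSM library lay above every mLIF library, and every mLIF library above every PBS library, though by only 3 counts at the closest. Runx1 rose by 1.31 on the log2 scale (SE 0.17, adjusted p = 2.63e-06) with mOSM, by 1.39 (adjusted p = 8.57e-07) with hlOSM and by 0.57 (adjusted p = 0.0337) with mLIF. The call with mLIF was lost without PBS replicate 3, the library at 89, where the difference was 0.28 (adjusted p = 0.225). It was also lost without mLIF replicate 1 (adjusted p = 0.0506), 2 (0.0554) or 3 (0.174), and in a robust fit (0.194).

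The proteins that work with RUNX1 responded in part. Tle3, a corepressor, rose by 0.91 with mOSM (adjusted p = 1.81e-08) and with hlOSM (adjusted p = 1.14e-08), and by 0.27 with mLIF (adjusted p = 0.0424, and 0.071 with a replicate block). The paralog Runx2 rose by 0.59 with mOSM and 0.74 with hlOSM (adjusted p = 0.0154 and 0.00267). Runx1t1, a corepressor of the ETO family, fell by 0.83 and 0.81 (adjusted p = 0.00113 and 0.00116). Cbfb, the partner subunit that RUNX proteins need to bind DNA firmly, did not pass (0.072 and 0.063), nor did Tle1. Since macrophages also use Runx1, their markers are given beside it. Of 5 tested, only the lysosomal protein Cd68 rose, by 1.22 with mOSM, 1.28 with hlOSM and 0.61 with mLIF (adjusted p = 0.0192). Ptprc, Csf1r and Adgre1 did not pass and Lyz2 fell by 0.27 with hlOSM. C1qa, C1qb, C1qc and Fcgr1 were at 0 to 9. The summed level of the list was 306 to 323 in PBS, 287 to 332 after mLIF, 350 to 398 after mOSM and 325 to 392 after hlOSM, and its part in the rise of Runx1 was not tested.

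Dab2 encodes an adaptor that loads cargo receptors into clathrin-coated pits and is known as an early dedifferentiation marker of heart muscle. Its gene, ENSMUSG00000022150, lies on chromosome 15 from 6299788 to 6440712 on the plus strand, and 2.87% of its exonic bases are overlapped by Gm18888 on the opposite strand. It had 145, 141 and 152 in PBS, 169, 174 and 170 after mLIF, 194, 209 and 196 after mOSM and 228, 209 and 241 after hlOSM. PBS, mLIF and mOSM libraries did not overlap one another, and a single hlOSM library equalled the highest mOSM library. Dab2 rose by 0.45 on the log2 scale (SE 0.073, adjusted p = 5.79e-05) with mOSM and, under hlOSM, by 0.63 (adjusted p = 5.86e-07). With mLIF its difference was 0.23 (adjusted p = 0.0514), which missed the threshold.

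Receptors and partners of DAB2 went in both directions. With hlOSM, 2 of 7 rose and 3 fell. Lrp1, a large endocytic scavenger receptor, fell by 0.22 with mOSM and by 0.34 with hlOSM. Myo6, the motor that DAB2 recruits, fell by 0.35 and 0.33. Only with hlOSM did the adaptors Ap2b1 (0.22, adjusted p = 0.0116) and Numb (−0.28, adjusted p = 0.00671) pass, where the difference between hlOSM and mOSM was not called for any gene of this list. Cltc, the clathrin heavy chain, and Ap2a1 did not pass, and Lrp2 was too low to be tested.

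Nes encodes nestin, an intermediate filament protein of neural and muscle progenitors that also appears in newly formed vessels. Its gene, ENSMUSG00000004891, lies on chromosome 3 from 87971078 to 87980451 on the plus strand. It had 408, 483 and 267 in PBS, 368, 384 and 379 after mLIF, 732, 622 and 1063 after mOSM and 807, 758 and 924 after hlOSM. The lowest library with oncostatin M, at 622, was above the highest PBS library, at 483. Against PBS, Nes rose by 1.07 on the log2 scale (SE 0.16, adjusted p = 1.85e-05) with mOSM and, under hlOSM, by 1.14 (adjusted p = 5.83e-06). These rises ran from 0.82 to 1.25 and from 0.90 to 1.32 as single libraries were left out, and both calls held. With mLIF the difference of Nes was 0.0084 (95% interval −0.32 to 0.34), which ran from −0.24 to 0.19 in the same fits.

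No other intermediate filament gene passed the test as raised. Of 6 tested, hlOSM raised 1 and lowered 1. Vim, vimentin, with which nestin assembles into filaments, fell by 0.50 with mOSM (adjusted p = 1.48e-05) and by 0.54 with hlOSM (adjusted p = 3.85e-06). The linker Plec rose by 0.17 with both (adjusted p = 0.0303 and 0.0271). Des, which encodes the muscle intermediate filament protein desmin, did not pass, nor did Synm, Lmna and Krt18, and Krt8 was at 1 to 7.

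Kit encodes the receptor tyrosine kinase for stem cell factor, a marker of progenitors, mast cells and some endothelial cells. Its gene, ENSMUSG00000005672, lies on chromosome 5 from 75574916 to 75656722 on the plus strand. It had 27, 28 and 28 in PBS, 30, 33 and 28 after mLIF, 62, 60 and 64 after mOSM and 63, 56 and 72 after hlOSM. Libraries with oncostatin M lay at 56 or above and all others at 33 or below. The log2 difference was 1.14 (SE 0.13, adjusted p = 9.41e-07) with mOSM, 1.17 (adjusted p = 4.82e-07) with hlOSM and 0.13 (adjusted p = 0.597) with mLIF.

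The ligand of KIT moved the opposite way. Kitl, stem cell factor, fell by 0.28 with mOSM (adjusted p = 0.00729) and by 0.40 with hlOSM (adjusted p = 0.000298). Of 6 genes of the ligand and the adaptors, hlOSM raised 3 and lowered 2. The adaptor Shc1 rose by 0.30 and 0.31, the ubiquitin ligase Cbl by 0.30 and 0.35, and Grb2 by 0.26 with hlOSM (adjusted p = 0.00439). Sos1, the exchange factor downstream of GRB2, fell by 0.16 and 0.18, and its fall with mOSM did not pass with a replicate block (adjusted p = 0.077). The kinase Lyn did not pass.

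Markers of other cells that carry Kit or Nes are given here. Mast cell markers Mcpt4, Tpsb2 and Cma1 were at 0 to 3 in all libraries. Only Hdc, the histamine-forming enzyme of that list, was high enough to be tested, and it rose by 1.58 with mOSM and with hlOSM. Its mean went from 11 in PBS to 35 with mOSM and 34.3 with hlOSM. Of 8 endothelial markers, 6 rose and 0 fell with mOSM and with hlOSM, with medians of 0.41 and 0.34. The summed endothelial level was 1188 to 1262 in PBS, 1201 to 1266 after mLIF, 1471 to 1700 after mOSM and 1477 to 1590 after hlOSM. With hlOSM, Cdh5, the cadherin of endothelial junctions, rose by 0.72, the sialomucin Emcn by 0.65, Egfl7 by 0.38 and the receptor Tie1 by 0.38. Pecam1 did not pass with mOSM or hlOSM. It was the only endothelial marker called with mLIF, where it fell by 0.28 (adjusted p = 0.00916). The Schwann cell markers Sox10, S100b and Gfra3 were at 0 to 2. The part of endothelial cells in the rise of Nes and Kit was not tested.

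**Figure D2:**
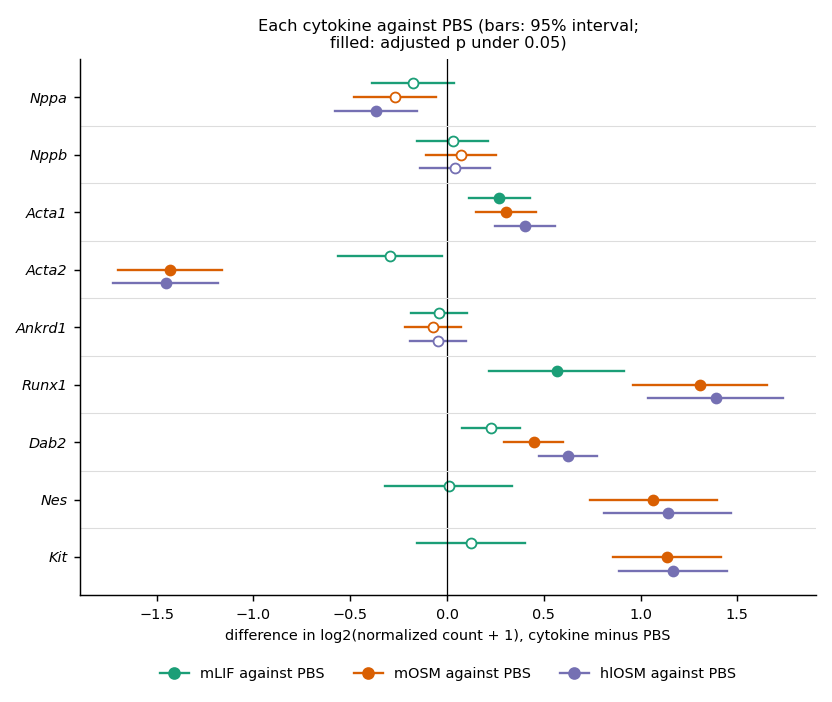
Difference in log2(normalized count + 1) between each cytokine and PBS (horizontal axis, cytokine minus PBS) for the 9 genes, with 95% intervals; filled points passed an adjusted p under 0.05. Runx1, Nes and Kit lie to the right of 1 with mOSM and hlOSM, Acta2 lies at −1.43 and −1.45, and the intervals of Nppb and Ankrd1 include 0 with all 3 cytokines.

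The cytokines were next compared with each other, which asks whether the receptors differ in what they move. Between mOSM and mLIF, Runx1, Nes and Kit were higher and Acta2 was lower with mOSM, 3 raised and 1 lowered, beside 6.05% raised and 5.76% lowered over all tested genes. The log2 differences were 0.74 (adjusted p = 0.00417) for Runx1, 1.06 (adjusted p = 6.22e-05) for Nes, 1.01 (adjusted p = 1.42e-05) for Kit and −1.14 (adjusted p = 1.8e-06) for Acta2. Dab2 missed the threshold, at 0.22 (adjusted p = 0.0522), and passed it with a filter at 50 (0.0476), after trimmed-mean rescaling (0.0279) and without PBS replicate 3 (0.046) or hlOSM replicate 3 (0.039). Between hlOSM and mLIF, the same 4 genes and Dab2 passed, 4 raised and 1 lowered, beside 7.42% and 9.22%. The difference for Dab2 was 0.40 (adjusted p = 0.00046). In a robust fit, Runx1 no longer passed against mLIF, with adjusted p of 0.0997 for mOSM and 0.0555 for hlOSM. Acta1, which rose with every cytokine, did not pass between them, with differences of 0.035 (95% interval −0.12 to 0.19) for mOSM and 0.13 (−0.022 to 0.29) for hlOSM against mLIF.

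Between hlOSM and mOSM, limma called 0 of the 9 genes, and 1 had an unadjusted p under 0.05. Over all tested genes, 0% were raised and 0.106% lowered. The exception in unadjusted p was Dab2, with a difference of 0.18 (95% interval 0.024 to 0.33, unadjusted p = 0.0252, adjusted p = 0.576). For Runx1 the interval ran from −0.27 to 0.43, for Nes from −0.25 to 0.40, for Kit from −0.25 to 0.31 and for Acta2 from −0.29 to 0.25. For Acta1 it ran from −0.058 to 0.25 and for Nppa from −0.31 to 0.11. For Nppb it ran from −0.21 to 0.15 and for Ankrd1 from −0.12 to 0.17. These intervals bound the differences and do not show that the proteins act alike.

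The interaction asks whether adding the LIFR arm on top of oncostatin M (hlOSM minus mOSM) differs from adding it on top of PBS (mLIF minus PBS). limma called 0 of the 9 genes, with 0 at an unadjusted p under 0.05, and 0.167% of all tested genes. The value closest to the threshold was that of Runx1, at −0.48 (95% interval −0.97 to 0.0073, adjusted p = 0.438), and it was −0.20 without PBS replicate 3. For Acta2 the value was 0.27 (−0.11 to 0.65) and for Acta1 −0.17 (−0.39 to 0.047).

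**Figure D3:**
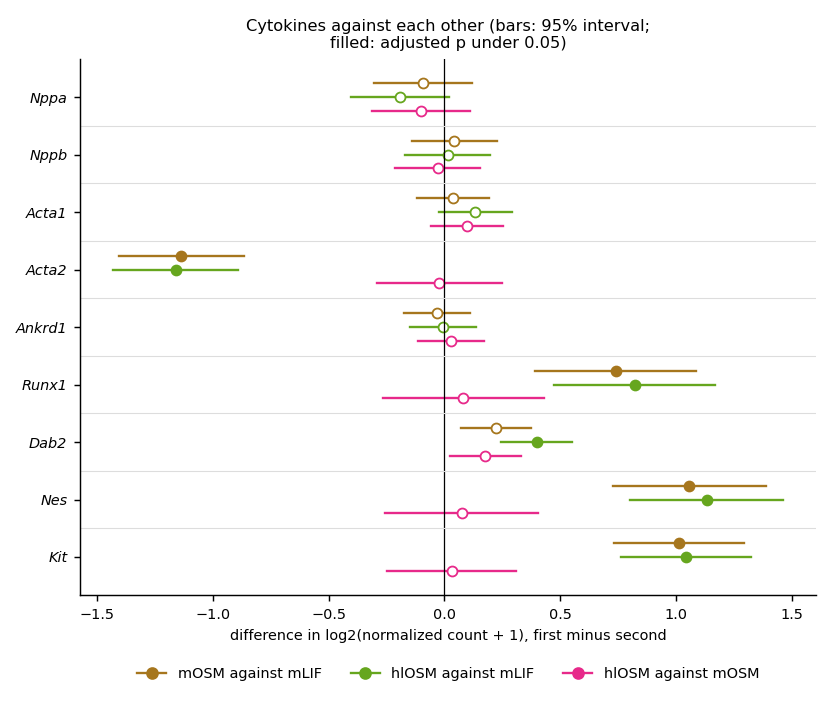
Difference in log2(normalized count + 1) between cytokines (horizontal axis, first named minus second) for the 9 genes, with 95% intervals; filled points passed an adjusted p under 0.05. Against mLIF, Runx1, Nes and Kit are higher and Acta2 is lower with mOSM and hlOSM, and no gene passes between hlOSM and mOSM.

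Levels between genes were compared per kb of exon, over all annotated exonic bases of a gene. The methods excluded reads overlapping several genes, so the level of Nppa may be too low if strand was ignored in counting. In PBS the order was Ankrd1 at 605 ± 14.0 normalized counts per kb (SD, n = 3), Nppb at 487 ± 28.2, Nppa at 214 ± 7.52, Acta1 at 213 ± 16.7, Acta2 at 103 ± 20.6, Nes at 60.2 ± 17.1, Dab2 at 19.9 ± 0.758, Runx1 at 11.5 ± 3.77 and Kit at 3.10 ± 0.065. Nppa and Acta1 overlapped, and no other neighbors in this order did. The stress and fetal genes thus stood above the progenitor markers in untreated cultures. With mOSM, Nes at 126 ± 35.8 per kb overtook Acta2 at 37.5 ± 3.87 and overlapped Nppa at 180 ± 35.0. With hlOSM, Acta2 at 37.0 ± 5.34, Dab2 at 30.8 ± 2.19 and Runx1 at 29.4 ± 5.80 overlapped as neighbors. Kit stayed the lowest in all 4 conditions, at 7.14 ± 0.900 per kb with hlOSM.

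**Figure D4:**
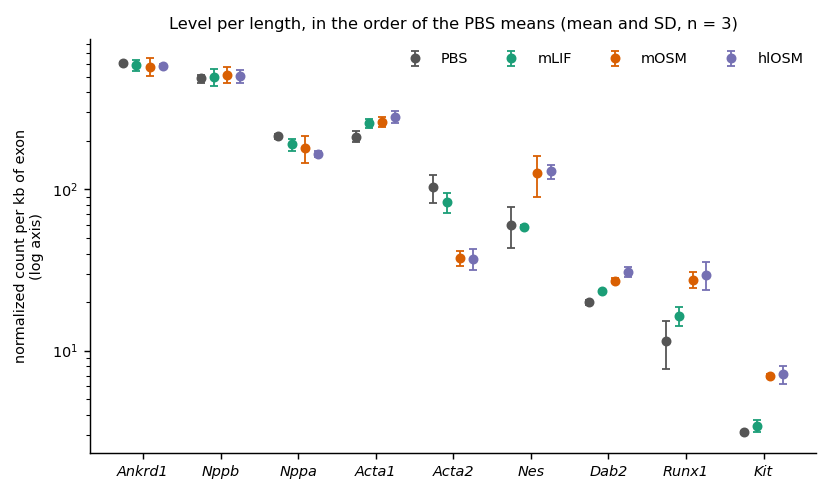
Normalized count per kb of exon (vertical axis, log scale) of the 9 genes in the 4 conditions, ordered by the PBS mean; points are means and bars SD with n = 3. Ankrd1 and Nppb lead in every condition and Kit is the lowest, while Nes passes Acta2 with mOSM and hlOSM.

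The remaining genes of the fetal program did not move one way. Of 17 tested, mLIF raised 4 and lowered 2, and mOSM and hlOSM each raised 6 and lowered 6. With hlOSM, Hcn4, the pacemaker channel, rose by 1.85 (adjusted p = 1.07e-10) and the RNA-binding protein Igf2bp2 by 1.05 (adjusted p = 3.15e-06). Hcn4 had a mean of 49.3 ± 11.4 (SD, n = 3) in PBS, 103 ± 1.00 after mLIF, 141 ± 12.3 after mOSM and 178 ± 17.0 after hlOSM. The T-type calcium channel gene Cacna1h fell by 1.19 with hlOSM (adjusted p = 0.00245) and the atrial light chain Myl4 by 0.83 (adjusted p = 0.000485). Myh7, the slow myosin heavy chain that is a standard fetal marker in mice, was outside these 4 largest differences, was picked after its value was seen, and fell by 0.26, 0.44 and 0.56 with mLIF, mOSM and hlOSM. Its fall with mLIF did not pass with a replicate block (adjusted p = 0.0699).

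Among 10 further markers of dedifferentiation, 2 rose and 3 fell with mOSM and with hlOSM. Cd44, a hyaluronan receptor, rose by 1.01 with hlOSM (adjusted p = 5.13e-08), whereas S100a6 fell by 0.91, the actin crosslinker Flna by 0.62 and Vim by 0.54. Of 20 tested genes of adult heart muscle, 13 fell with hlOSM, 14 with mOSM and 7 with mLIF (5 with a replicate block), with medians of −0.31, −0.28 and −0.20. With hlOSM, Kcnd2, a channel of the transient outward current, fell by 1.01, the metabolic coactivator Ppargc1a by 0.86, the calcium channel Cacna1c by 0.78 and the glucose transporter Slc2a4 by 0.78. With mOSM and with hlOSM, 1 gene of this list rose. Of 10 genes that mark heart muscle, 8 fell with mOSM and with hlOSM and 6 with mLIF (4 with a replicate block). All 10 also stand on the list of adult genes or on those above. The falls with hlOSM were led by Pln (−0.56) and Tnnt2 (−0.56) and then Ttn and Myh6 (−0.36). The summed level of the 10 genes, mostly Ttn, was 49962 to 52065 in PBS, 43499 to 45474 after mLIF, 35476 to 39747 after mOSM and 36301 to 38811 after hlOSM.

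Regulators of cardiac and smooth muscle promoters (SRF, MEF2, GATA, TEAD and their partners) fell more often than they rose. Of 17 tested, hlOSM raised 2 and lowered 9, mOSM raised 1 and lowered 7, and mLIF raised 0 and lowered 3. With a replicate block, hlOSM raised 0 and lowered 9, mOSM raised 0 and lowered 5, and mLIF raised 0 and lowered 3. Mef2c fell by 0.76, the T-box factor Tbx5 by 0.55 and Mef2a by 0.48 with hlOSM. Tead4, a factor of the MCAT motif at a mean of 7.33 in PBS, rose by 0.84 with hlOSM (adjusted p = 0.0418, and 0.085 with the block). Of 8 proliferation genes, 0 rose and 4 fell with hlOSM, namely Cdk1 (−0.69), Birc5 (−0.56), Top2a (−0.51) and Mki67 (−0.43). Fibroblast markers went both ways, with 3 of 9 raised and 6 lowered by hlOSM. Col3a1 rose by 1.04 and the proteoglycan Dcn by 0.98, while Dpt fell by 1.32 and Col1a2 by 0.98, and the summed level was 2314 to 2543 in PBS and 2315 to 2548 with hlOSM.

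**Figure D5:**
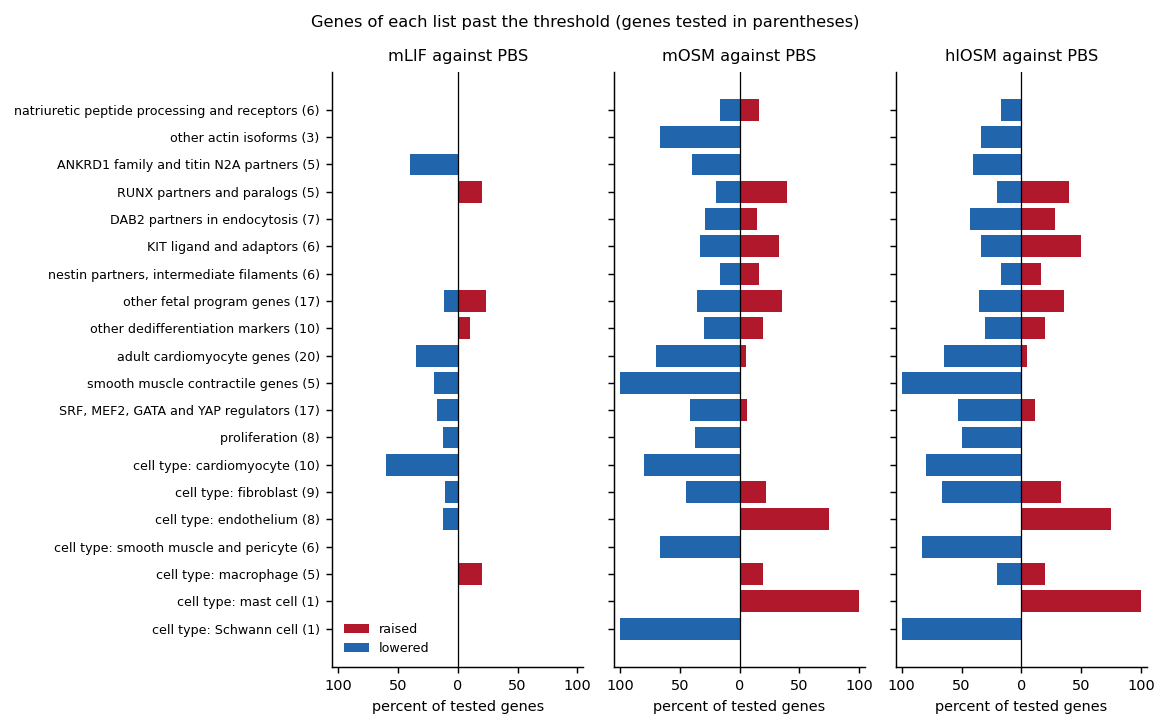
Share of the tested genes of each list (horizontal axes, percent) that were raised (to the right) or lowered (to the left) by each cytokine against PBS, at an adjusted p under 0.05; the number of genes tested is in parentheses. All 5 smooth muscle contractile genes are lowered by mOSM and hlOSM and 6 of 8 endothelial markers are raised, while the other fetal program genes divide into 6 raised and 6 lowered.

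For each of the 9 genes, those with the most similar pattern over the 12 libraries were sought among genes with a mean of at least 50, by Pearson's r of log2 values. The r values describe likeness only, since the libraries share conditions. Runx1 was closest to Cd44 (r = 0.99) and Anxa2 (0.99), and Kit to Chst11 (0.99) and Ptgs2 (0.99). Acta2 was closest to Akap12 (0.99) and Thbs1 (0.99). Dab2 was closest to Nek7 (0.98) and Hipk1 (0.98), Nes to Amotl1 (0.98) and Tinagl1 (0.97), and Acta1 to Stom (0.96) and Rack1 (0.96). For the genes without a call or with a single one, Nppa lay nearest to Daam1 (0.95) and Pcf11 (0.95), Ankrd1 to Eef2 (0.96) and Tcp1 (0.95), and Nppb to Gm36940 (0.90) and Cyb5r3 (0.88).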

How the data were processed

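RNA of 12 libraries, 3 per condition, was sequenced after a stranded total RNA preparation, and the titles give each library's condition and replicate number. The authors aligned reads to mm10 (STAR 2.7.7a), counted them per gene (featureCounts 1.6.5), normalized these counts and rounded the result. What they deposited is thus a score, a rounded normalized count, and which normalization was used is not given in the sources used here. The strand setting of the counting is not given in them either. Scaling factors recomputed by a trimmed mean lay between 0.982 and 1.03.

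Tests used limma 3.58.1 in R 4.3.3 (lmFit, eBayes with trend) on log2(normalized count + 1), two-sided, in 1 model of all 4 conditions, for the 13184 genes at 10 or more in at least 3 libraries. Comparisons were each cytokine against PBS, the 3 pairs of cytokines and the interaction. The threshold was a Benjamini-Hochberg adjusted p under 0.05. The test was checked on simulated data. It was repeated with pseudocounts of 0.1 and 5, without the filter or with a minimum of 50, after rescaling by a trimmed mean or by quantiles, on the compared libraries alone, as a robust fit, with a replicate block, with a minimum of 1.5-fold or an adjusted p under 0.01 as the threshold, and leaving out every library once.

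The 9 genes and the 20 lists around them (171 genes, 165 in the table, some in more than 1 list) were chosen with earlier results of these data known. Named genes were the 9, every gene of the lists of partners, up to 4 genes per other list with the largest differences past the threshold with hlOSM, and the 2 genes most alike each member. Some genes counted in the lists are not reported here by name. Exon lengths and overlaps were taken from GENCODE M21, and promoters from RefSeq on GRCm38.p6.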

Additional observations from a re-analysis of the deposited data

How the results depend on the processing

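The number of members called with mLIF against PBS depended on the processing. It was 2, and became 1 without a filter and in the robust fit, and 0 with at least 1.5-fold or an adjusted p under 0.01. As single libraries were left out it ran from 0 to 3, with 0 without PBS replicate 3, mLIF replicate 1 or mLIF replicate 3. The counts with mOSM (6) and hlOSM (7) against PBS stayed within 4 to 8 and 5 to 7, those of mOSM and hlOSM against mLIF within 3 to 5 and 4 to 5, and those of hlOSM against mOSM and of the interaction were 0 under each alternative. Runx1 with mLIF also missed the threshold after trimmed-mean (adjusted p = 0.0548) and quantile rescaling (0.0565), and Dab2 with mLIF passed after both (0.0366 and 0.0441). Nppa with mOSM passed with a pseudocount of 5, a filter at 50, quantile rescaling and the robust fit. The cause was not tested.

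Whether replicate numbers pair the libraries could not be read from the deposited values. Over 18 pairs of libraries with the same number in different conditions, deviations from the condition means correlated by −0.41 to −0.15 (median −0.32), against 0.0044 to 0.33 (median 0.17) over 36 pairs with different numbers. Averaged over the 4 conditions, the log2 level of each member differed between replicate numbers by a similar small amount, 0.045 to 0.055. Values from which a replicate effect has been removed would show such negative correlations, but no source used here describes such a step, and it was not tested. With a replicate block, the counts of members called were 2, 6, 7, 4, 5, 0 and 0 in the order of the comparisons, and no call of a member changed.

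Signs changed only in differences that had not passed the test. After quantile rescaling Ankrd1 was at 0.0087 with mLIF and 0.015 with hlOSM against PBS, and at 0.0058 between hlOSM and mLIF. With single libraries left out, log2 differences that changed sign had these ranges. Against PBS they were Nppb −0.067 to 0.082, Ankrd1 −0.10 to 0.0030, Nes −0.24 to 0.19 with mLIF, Ankrd1 −0.17 to 0.011 with mOSM and Nppb −0.021 to 0.12 with hlOSM. Against mLIF they were Nppa −0.24 to 0.013, Nppb −0.022 to 0.14, Ankrd1 −0.13 to 0.052 with mOSM, and Nppb −0.049 to 0.11, Ankrd1 −0.049 to 0.059 with hlOSM. Between hlOSM and mOSM they were Nppa −0.21 to 0.050, Nppb −0.12 to 0.045, Acta2 −0.10 to 0.10, Ankrd1 −0.057 to 0.12, Runx1 −0.072 to 0.19, Nes −0.093 to 0.29, Kit −0.060 to 0.12. In the interaction they were Nppa −0.031 to 0.22, Nppb −0.15 to 0.037, Ankrd1 −0.016 to 0.16, Dab2 −0.10 to 0.0040, Nes −0.12 to 0.31. The unknown depth and normalization limit what small differences of low genes such as Kit can show.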
